A study of Drosophila melanogaster with 9 samples.

Results

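The 10 genes described here make up the core of dosage compensation and sex determination in Drosophila melanogaster, namely the noncoding RNAs lncRNA:roX1 and lncRNA:roX2, the 5 protein subunits of the MSL complex (msl-1, msl-2, msl-3, mle and mof), and the sex determination genes Sxl, tra and dsx. They were taken by FlyBase gene identifier from the 16364 genes counted in each library, all 10 were found, and all 10 were among the 10193 genes that passed the filter on low counts. RNA was sequenced from intermediate neural progenitors (INPs), the transit-amplifying cells of type II neuroblast lineages, which pass in order through a state marked by Dichaete (D+), a state marked by Grainyhead (Grh+) and a state marked by Eyeless (Ey+). Each state was measured in 3 libraries of sorted cells, 9 libraries in all. Brains came from wandering larvae of the last instar, raised at 29C after egg laying, and every group carried UAS-cd8::tdTomato and erm-GAL4, a driver active in INPs that labelled their membranes with tdTomato. The sort took the largest cells with the brightest tdTomato and GFP. The D+ group carried GFP knocked into the endogenous D locus (D::GFP), whereas the Grh+ and Ey+ groups carried GFP-tagged grh and ey on inserted BAC clones, so those animals had extra copies of the tagged gene. No drug or mutation distinguished the groups, the sex of the larvae is not given in the labels, and nothing states how many animals or dissections a library came from, so p-values measure the spread between libraries, which may be in part technical.

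As background, male flies have a single X chromosome and females have a pair. In males the MSL complex, carrying roX RNA, spreads over the X and raises its transcription, with MOF acetylating histone H4. In females the RNA-binding protein SXL, the master switch of sex determination, represses translation of msl-2, so that the complex does not form, and roX RNAs are largely a product of male cells. SXL also directs the female splice of tra, and TRA with its partner TRA2 directs the female splice of dsx, whose male and female proteins are alternative transcription factors. Sxl, tra, dsx and msl-2 are thus controlled by splicing or translation, and a count per gene does not tell their male and female forms apart.

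The libraries held 11266164 (Grh+ replicate 1) to 23184025 (D+ replicate 1) counts on genes, and levels are given as RPM, counts of a gene per 1000000 counts on genes. The D+ libraries were run on a different flow cell from the others by the library names, so in comparisons with D+ the run and the state cannot be told apart. A pair of libraries stood apart in how much RNA of long and short transcripts they held. The median deviation of the longest genes (top quartile of exon length) minus that of the shortest (bottom quartile), on the log2 scale relative to the mean library, was -1.01 in D+ replicate 2 and 0.58 in Ey+ replicate 1, against -0.37 to 0.23 in the other libraries. The progenitor genes dpn and ase were present in every library (dpn at 153 to 394 RPM and ase at 528 to 1049 RPM). Another progenitor gene, erm, whose driver labelled these cells, fell from state to state. D+ libraries held 192 to 245 RPM of erm, Grh+ libraries 96.7 to 116 RPM and Ey+ libraries 38.7 to 43.1 RPM. The marker D was highest in D+ libraries (242 to 393 RPM). There ey was at 8.0 to 19.9 RPM, against 481 to 685 RPM in the other states. The marker grh was highest in Grh+ libraries, at 574 to 838 RPM, against 88.1 to 382 RPM elsewhere. The summed level of 4 neuron markers, nearly all of it from elav, was 194 to 993 RPM in D+, 390 to 819 RPM in Grh+ and 662 to 2746 RPM in Ey+ libraries, with the highest value in Ey+ replicate 1.

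lncRNA:roX1 (FBgn0019661, chromosome X, 3857230 to 3862697 on the minus strand of the release 6 assembly) is the longer roX RNA, with 5468 bp of exon. It was among the most abundant RNAs of these cells. In D+ replicates 1, 2 and 3 it was at 10349, 3251 and 10639 RPM. In Grh+ replicates 1, 2 and 3 it was at 10095, 12080 and 8289.8 RPM, and in Ey+ replicates 1, 2 and 3 at 11589, 12657 and 9742 RPM. D+ replicate 2 was the low library, and the other 8 lay within 8289.8 to 12657 RPM, with the 3 states overlapping. In those 8 libraries roX1 took 0.829% to 1.27% of all counts on genes and ranked 2 or 3 among all genes, whereas in D+ replicate 2 it took 0.325% and ranked 24. About 8.76% of its exon sequence is shared with other annotated genes, mostly with ec on the opposite strand, and the reads carried no strand.

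lncRNA:roX2 (FBgn0019660, chromosome X, 11579065 to 11580432 on the plus strand) is the short roX RNA, with 1368 bp of exon and none of it shared. It was at 40.1, 96.3 and 45.5 RPM in D+ replicates 1, 2 and 3. In the same order, the Grh+ libraries held 80.95, 77.0 and 71.5 RPM and the Ey+ libraries 25.5, 39.5 and 51.5 RPM. The 3 Grh+ libraries all lay above the 3 Ey+ libraries, and above D+ replicates 1 and 3, but below D+ replicate 2, which was the highest for roX2 and the lowest for roX1. Per kb of exon, the level of roX1 was 1478 ± 765, 1857 ± 347 and 2072 ± 270 RPM in D+, Grh+ and Ey+ INPs, and that of roX2 was 44.3 ± 22.7, 55.9 ± 3.45 and 28.4 ± 9.54 RPM (SD, n = 3 libraries each). The state means of the 5 MSL subunit mRNAs lay between 30.6 and 48.0 RPM per kb, so roX2 was near them and roX1 far above. In bulk RNA a larger share of cells with a transcript, such as those of male larvae for the roX RNAs, cannot be told apart from more RNA per cell.

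**Figure D1:**
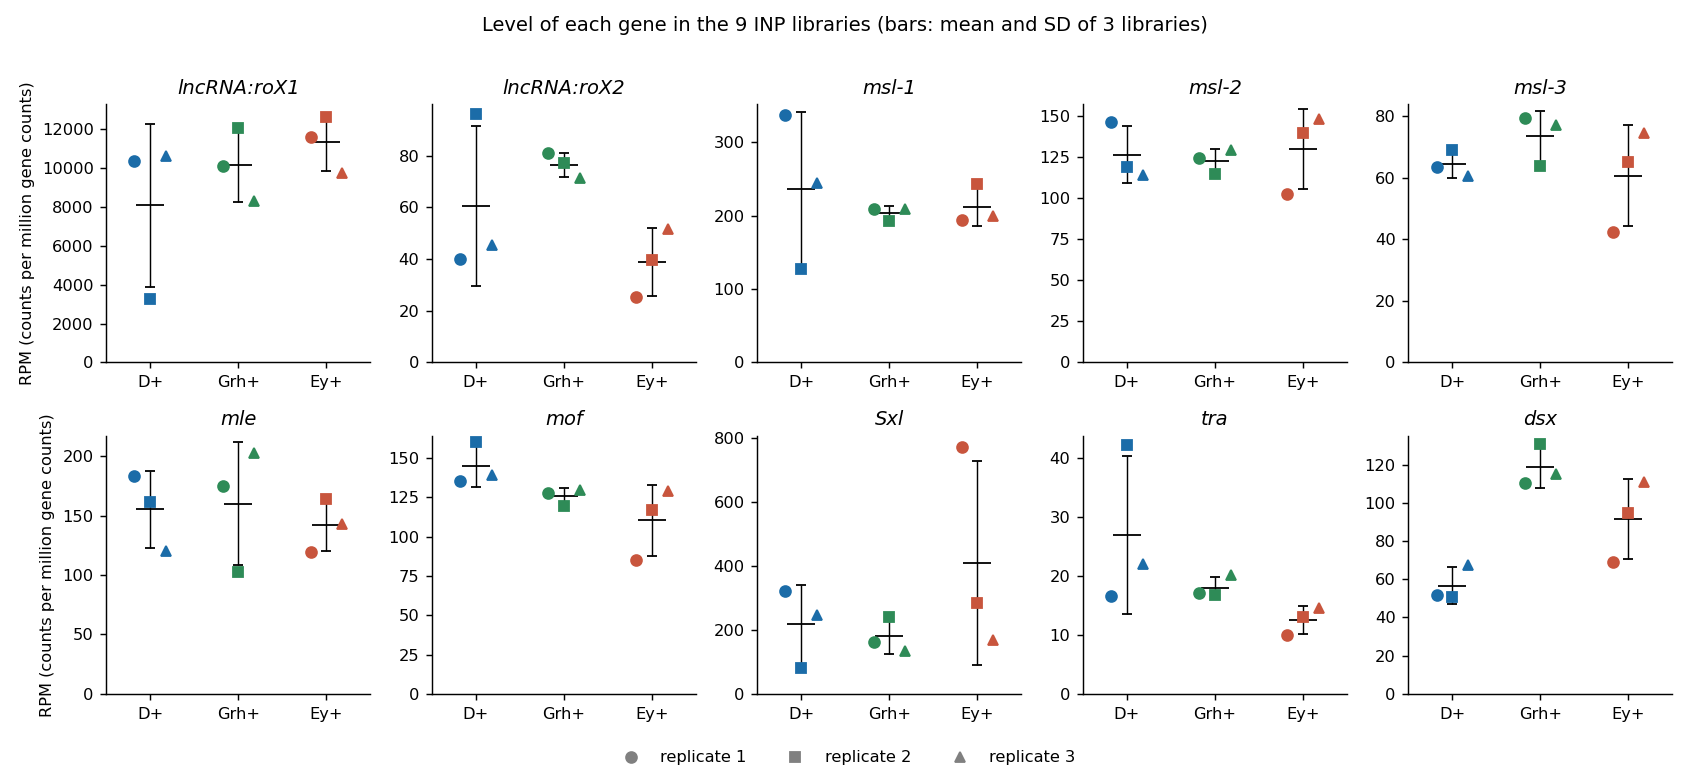
RPM (vertical axes, counts per 1000000 counts on genes) of each of the 10 genes in D+, Grh+ and Ey+ libraries, with 1 point per library, a mark shape per replicate number, and bars for the mean and SD of 3 libraries. D+ replicate 2 was lowest for roX1, msl-1, Sxl and dsx and highest for roX2, tra and mof. Ey+ replicate 1 was highest for Sxl at 771 RPM, and dsx was higher in every Grh+ and Ey+ library than in any D+ library.

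Between states, neither roX RNA passed the test. In edgeR's quasi-likelihood test over all 10193 genes, roX1 had a log2 fold change of 0.17 (95% interval -0.71 to 1.06, adjusted p = 0.849) in Grh+ against D+ INPs. It had 0.47 (-0.42 to 1.35, adjusted p = 0.943) in Ey+ against Grh+ and 0.64 (-0.25 to 1.53, adjusted p = 0.333) in Ey+ against D+ INPs. The intervals therefore allow changes of more than 1 on the log2 scale in one direction. roX2 had 0.19 (-0.50 to 0.87, adjusted p = 0.780) in Grh+ against D+ INPs. In Ey+ against Grh+ INPs its log2 fold change was -0.73 (-1.42 to -0.05, unadjusted p = 0.0384, adjusted p = 0.553 in edgeR), and in Ey+ against D+ INPs -0.55 (-1.23 to 0.14, adjusted p = 0.282 in edgeR). With both libraries that stood apart in transcript length left out, roX2 was higher in Grh+ than in D+ INPs (log2 fold change 0.72, adjusted p = 0.0379 in edgeR), and its value in Ey+ against D+ INPs turned to 0.11 (adjusted p = 0.773). This was the 1 of 19 alternatives in which roX2 passed in Grh+ against D+ INPs. Without D+ replicate 2 alone it had 0.70 (adjusted p = 0.0768 in edgeR), and after removal of the exon length trend 0.01 (adjusted p = 0.987).

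The ratio of roX2 to roX1 counts, which does not depend on how a library is scaled, was highest in D+ replicate 2 and, among the other libraries, highest in Grh+ INPs. roX2 counts were 0.387%, 2.96% and 0.428% of roX1 counts in D+ replicates 1, 2 and 3. They were 0.802%, 0.637% and 0.863% in the Grh+ libraries and 0.22%, 0.312% and 0.529% in the Ey+ libraries, in the same order. All 3 Grh+ values were above all 3 Ey+ values, and D+ replicates 1 and 3 lay among the Ey+ values while D+ replicate 2 lay above every other library. Per kb of exon, roX2 was at 0.878% (Ey+ replicate 1) to 11.8% (D+ replicate 2) of roX1. From summed counts of the 3 libraries, the ratio was 0.72% in D+, 0.733% in Grh+ and 0.332% in Ey+ INPs.

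On the log2 scale the mean ratio was -6.99 ± 1.66 in D+, -7.04 ± 0.23 in Grh+ and -8.24 ± 0.64 in Ey+ INPs (SD, n = 3 libraries each). Ey+ was lower than Grh+ INPs by a difference of -1.20 (standard error 0.39), or 2.3-fold, with p = 0.1 in a two-sided exact permutation test, the smallest p that 3 against 3 libraries allow (adjusted p = 0.3 over the 3 comparisons). Grh+ against D+ INPs differed by -0.05 (standard error 0.96, exact permutation p = 1, adjusted p = 1), and Ey+ against D+ INPs by -1.25 (standard error 1.02, exact permutation p = 0.3, adjusted p = 0.45). Over all 3 states, the exact permutation test of the F statistic gave p = 0.311 from 1680 assignments. That p was 0.0667 with D+ replicate 2 and Ey+ replicate 1 left out and 0.204 after removal of the exon length trend. Without D+ replicate 2 alone it was 0.0393 (560 assignments), and the difference of Grh+ from D+ INPs turned to 0.90. The exact permutation p of that difference was 0.1, the smallest possible with that library left out. With the trend on exon length removed from all libraries, the difference of Ey+ from Grh+ INPs was -1.10 and that of Grh+ from D+ INPs 0.20. The libraries with the highest and lowest ratios, D+ replicate 2 and Ey+ replicate 1, were also those with the lowest and highest length values (-1.01 and 0.58). The other 7 libraries had length values between -0.37 and 0.23, and their ratio did not fall steadily with that value. It was 0.428% in D+ replicate 3 (length value -0.37) and 0.529% in Ey+ replicate 3 (-0.08). The Grh+ libraries had 0.637% to 0.863% (0.03 to 0.11), D+ replicate 1 had 0.387% (0.18) and Ey+ replicate 2 had 0.312% (0.23).

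**Figure D2:**
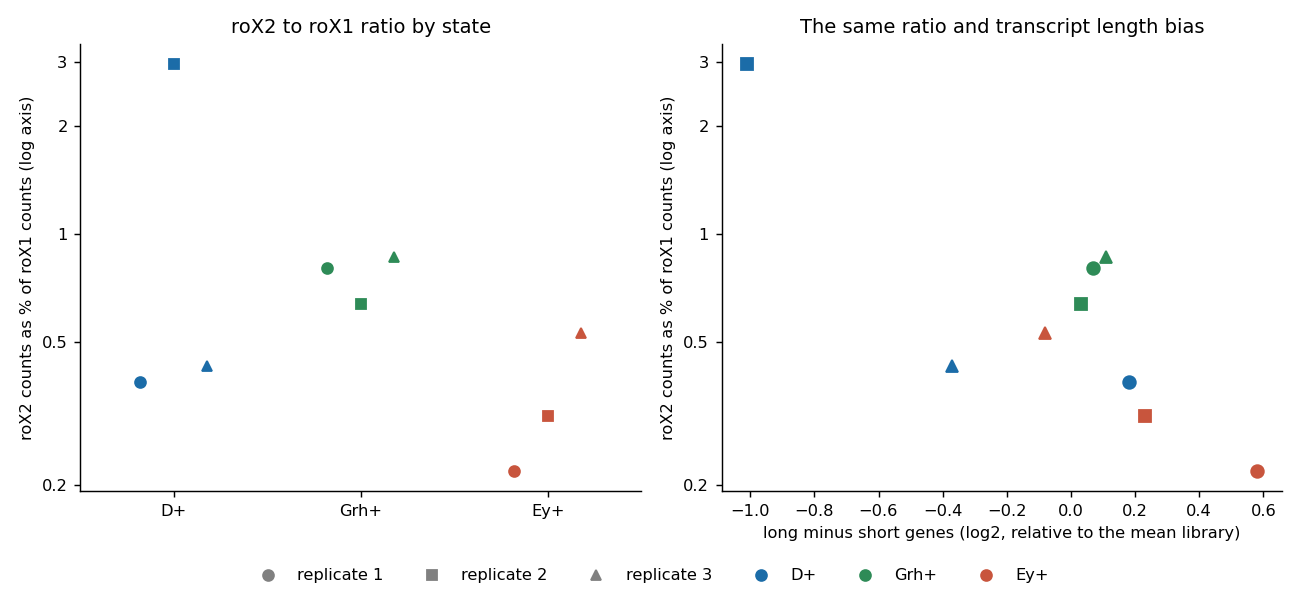
Left, roX2 counts as a percentage of roX1 counts (log axis) in each library of the 3 states. Right, the same percentage (log axis) against the difference between long and short genes in that library (log2, relative to the mean library). D+ replicate 2 lies apart at 2.96% and -1.01, the 3 Grh+ libraries lie at 0.637% to 0.863%, and Ey+ libraries reach from 0.22% to 0.529%.

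The 5 subunits of the MSL complex were expressed in all 3 states. msl-1 (FBgn0005617, chromosome 2L, 18683720 to 18688800), the scaffold of the complex, was at 337, 127 and 244 RPM in D+ replicates 1, 2 and 3. It was at 209.65, 193 and 209 RPM in the Grh+ libraries and 194, 243 and 199.5 RPM in the Ey+ libraries. The D+ libraries thus held both the highest and the lowest value, 2.64-fold apart, with all other libraries between them.

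msl-2 (FBgn0005616, chromosome 2L, 3462218 to 3466112) encodes the RING-finger subunit whose protein is the male-limited one, and SXL binds its transcript in females. It was at 147, 119 and 114 RPM in the D+ libraries. It was at 124, 115 and 129 RPM in the Grh+ libraries and at 103, 140.1 and 148 RPM in the Ey+ libraries. Its coefficient of variation over the 9 libraries, 12.5%, was lower than that of 98.8% of the genes tested (median 37.3%). About 12.13% of its exon sequence is shared with a transposable element and small RNA annotations.

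msl-3 (FBgn0002775, chromosome 3L, 7123213 to 7125533) encodes the chromodomain subunit that reads histone methylation on active genes. It lay between 60.4 and 69.2 RPM in D+, 63.9 and 79.5 RPM in Grh+, and 42.4 and 74.6 RPM in Ey+ libraries. mle (FBgn0002774, chromosome 2R, 5974857 to 5980778), the RNA helicase that remodels roX RNA, lay between 120.2 and 184 RPM in D+, 103 and 202 RPM in Grh+, and 119.6 and 164 RPM in Ey+ libraries. Both genes overlapped between all pairs of states. mof (FBgn0014340, chromosome X, 5873840 to 5876853), the histone H4 lysine acetyltransferase, which also works in the NSL complex of both sexes, was at 135, 160.2 and 139 RPM in D+ replicates 1, 2 and 3. It was at 128, 119.6 and 129 RPM in the Grh+ libraries and 85.0, 117 and 129 RPM in the Ey+ libraries, so every D+ library was above every Grh+ and Ey+ library.

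Per kb of exon, the 5 subunits lay close to each other. In Grh+ INPs mof was at 41.7 ± 1.74, msl-1 at 40.6 ± 1.90, msl-3 at 37.3 ± 4.25, mle at 34.5 ± 11.1 and msl-2 at 32.0 ± 1.93 RPM per kb (SD, n = 3 libraries), and neighbours in this order differed by less than their spread. As a share of the summed level per kb of the 5 subunits in a library, msl-2 ranged only from 16.4% to 20.3%, whereas msl-1 ranged from 14.1% in D+ replicate 2 to 30.2% in D+ replicate 1. The msl-2 share was 17.0% ± 0.47 in D+, 17.2% ± 0.97 in Grh+ and 19.4% ± 0.79 in Ey+ INPs (SD, n = 3 libraries), and all 3 Ey+ libraries were above all others; this was seen in the values and not tested.

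None of the 5 subunits passed the test in any comparison. The largest absolute log2 fold changes were -0.36 for msl-1 (standard error 0.31, adjusted p = 0.542) and -0.36 for mof (standard error 0.15, unadjusted p = 0.0377, adjusted p = 0.181), both in Grh+ against D+ INPs in edgeR. For msl-2 the log2 fold change was 0.35 in Ey+ against Grh+ INPs (95% interval -0.00 to 0.71, adjusted p = 0.60 in edgeR), the farthest from 0 of its 3 comparisons. For msl-3 the 95% intervals of all 3 comparisons lay within -0.38 and 0.40, so that a change of 1 on the log2 scale is outside them. For msl-1 the intervals reached down to -1.05 in Grh+ against D+ and up to 1.03 in Ey+ against Grh+ INPs, so such a change is inside them.

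Sxl (FBgn0264270, chromosome X, 7074550 to 7098053) was the most variable of the 10 genes. It was at 323, 82.4 and 247 RPM in D+ replicates 1, 2 and 3. It was at 162, 241 and 135 RPM in the Grh+ libraries and 771, 285 and 169 RPM in the Ey+ libraries, in the same order. Ey+ replicate 1 was 2.39-fold above the next library and D+ replicate 2 was the lowest, and the states overlapped. Its log2 fold change was 1.62 in Ey+ against Grh+ INPs (standard error 0.67, unadjusted p = 0.0369, adjusted p = 0.546 in edgeR), 1.19 in Ey+ against D+ INPs (adjusted p = 0.282) and -0.43 in Grh+ against D+ INPs (adjusted p = 0.759). Without Ey+ replicate 1 the first was 0.50 (adjusted p = 1.00 in edgeR) and the second 0.10 (adjusted p = 0.947). Of the 4 neuron markers, elav was at 2704 RPM in Ey+ replicate 1, the highest library for both genes, and 185 RPM in D+ replicate 2, the lowest for both. The other 3 markers were low, and brp (2.20 to 18.03 RPM), nSyb (1.38 to 20.5 RPM) and Syt1 (2.47 to 29.3 RPM) were each highest in Grh+ replicate 2. The part of neuronal RNA in the Sxl values was not tested. Both genes have long exon sequence (9192 bp for Sxl and 10715 bp for elav), and the same 2 libraries were the extremes of the length value.

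tra (FBgn0003741, chromosome 3L, 16590059 to 16591050), a splicing factor that is functional in females only, was the least abundant of the 10 genes by counts. It was at 16.6, 42.2 and 22.1 RPM in D+ replicates 1, 2 and 3. It was at 17.2, 16.8 and 20.2 RPM in the Grh+ libraries and 9.92, 13.1 and 14.6 RPM in the Ey+ libraries. Every Ey+ library was below every Grh+ and D+ library. Its log2 fold change in Ey+ against D+ INPs was -0.99 (standard error 0.31, unadjusted p = 0.0104, adjusted p = 0.0816 in edgeR), which did not pass the test. Without D+ replicate 1 it was -1.23 and passed (adjusted p = 0.0294 in edgeR), and without D+ replicate 2 it was -0.50 (adjusted p = 0.209). In Grh+ against D+ INPs tra had -0.73 (unadjusted p = 0.0420, adjusted p = 0.192), and in Ey+ against Grh+ INPs -0.26 (adjusted p = 1.00 in edgeR).

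dsx (FBgn0000504, chromosome 3R, 7924323 to 7967408) was the gene of the set with a difference between states that passed an adjusted p. It was at 51.5, 50.7 and 67.6 RPM in D+ replicates 1, 2 and 3. In the Grh+ libraries it was at 110.15, 131 and 115 RPM, and in the Ey+ libraries at 69.1, 94.9 and 111 RPM. All Grh+ and Ey+ libraries were above all D+ libraries, Grh+ by more than Ey+. The log2 fold change was 0.91 in Grh+ against D+ INPs (standard error 0.17, 95% interval 0.54 to 1.29, adjusted p = 0.0162) and 0.80 in Ey+ against D+ INPs (standard error 0.17, 0.43 to 1.18, adjusted p = 0.0237), both in edgeR. Ey+ and Grh+ INPs did not differ by the test (-0.11, 95% interval -0.48 to 0.26, adjusted p = 1.00 in edgeR). Both differences were below a log2 fold change of 1, so dsx was not counted as changed under the rule used for counts.

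The adjusted p of dsx moved across the threshold with single libraries, with the handling of transcript length, with the scaling and with the libraries fitted. With the trend on exon length removed, the log2 fold change of dsx, which has 9167 bp of exon, was 0.45 in Grh+ against D+ INPs (adjusted p = 0.488 in edgeR) and 0.29 in Ey+ against D+ INPs (adjusted p = 0.672). In fits of the 6 compared libraries alone, adjusted p was 0.0692 in Grh+ against D+ and 0.0991 in Ey+ against D+ INPs, and with library size only the latter had 0.69 (adjusted p = 0.120 in edgeR). In Grh+ against D+ INPs adjusted p was also above 0.05 without Grh+ replicate 1 (0.0877), Grh+ replicate 2 (0.0667), Grh+ replicate 3 (0.0833) or Ey+ replicate 2 (0.0518), and without D+ replicate 3 the fold change passed as well (1.08, adjusted p = 0.0192). In Ey+ against D+ INPs it was above 0.05 without Grh+ replicate 1 (0.0664), Grh+ replicate 3 (0.0620), Ey+ replicate 1 (0.0726), Ey+ replicate 2 (0.115) or Ey+ replicate 3 (0.0744). With D+ replicate 2 and Ey+ replicate 1 both left out, the values were 0.88 (adjusted p = 0.0219) and 0.81 (adjusted p = 0.0522). DESeq2 gave 0.93 (adjusted p = 0.00015) and 0.83 (adjusted p = 0.000858).

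Over the 10 genes, 0 were changed in any of the 3 comparisons, where changed means adjusted p under 0.05 in edgeR, a log2 fold change beyond 1 in either direction and a mean above 10 RPM in at least 1 state. DESeq2 also called 0 in each. The share of all genes tested that was changed was 3.16% in Grh+ against D+, 0.235% in Ey+ against Grh+ and 3.95% in Ey+ against D+ INPs, so 0 of 10 is near the background. At adjusted p alone, 1 of 10 passed in Grh+ against D+ and 1 of 10 in Ey+ against D+ INPs (dsx in both), against 6.23% and 7.95% of all genes, and 0 of 10 in Ey+ against Grh+ INPs, against 0.235%. At an unadjusted p under 0.05, 3 of the 10 passed in Grh+ against D+ (mof, tra and dsx, against 23.8% of all genes), 2 in Ey+ against Grh+ (roX2 and Sxl, against 8.43%) and 2 in Ey+ against D+ INPs (tra and dsx, against 26.5%). The libraries of the 2 states did not overlap for 2 of 10 genes in Grh+ against D+ (29.7% of all genes), 2 of 10 in Ey+ against Grh+ (23.2%) and 3 of 10 in Ey+ against D+ INPs (24.5%). The median log2 fold change of the 10 was -0.15, 0.09 and 0.01 in these 3 comparisons. The comparisons share libraries and are not independent of each other.

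**Figure D3:**
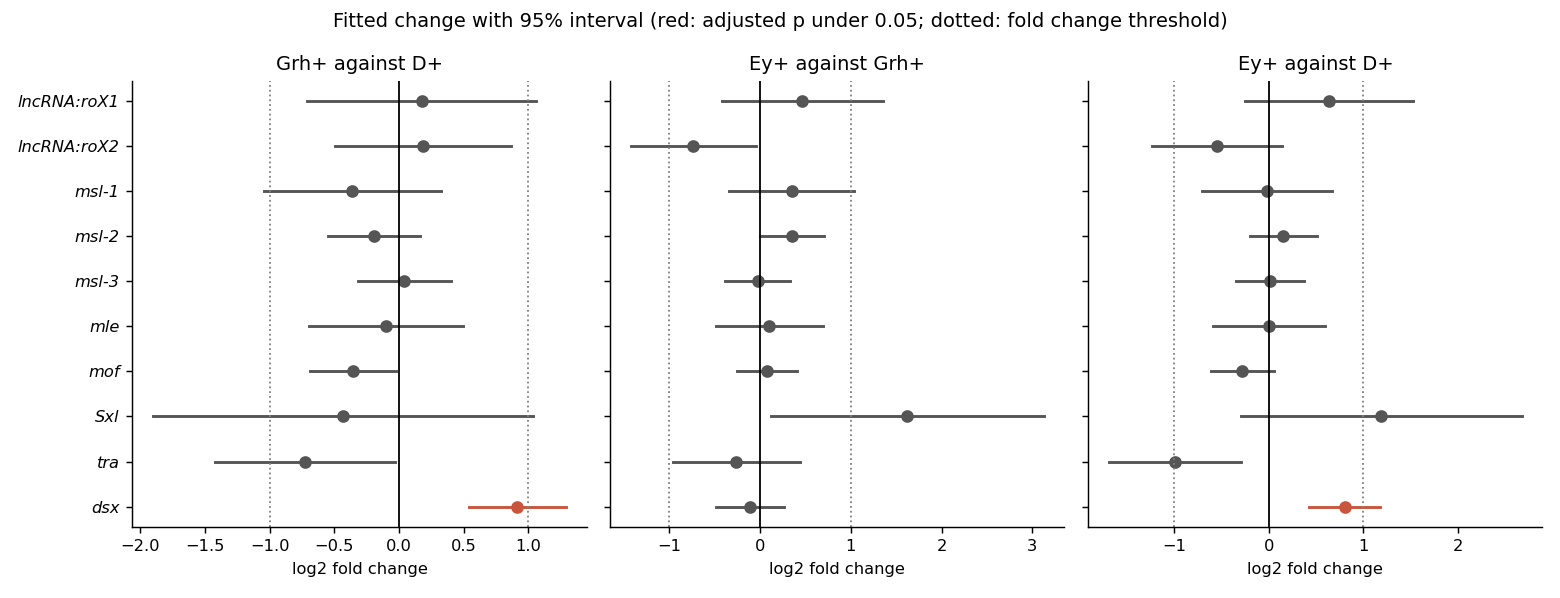
Fitted log2 fold change (horizontal axes) of each gene in the 3 comparisons, as points with 95% intervals from edgeR, in red where adjusted p was under 0.05 and with dotted lines at the fold change threshold of 1. Red appears for dsx in both comparisons with D+ INPs (0.91 and 0.80), and Sxl has the widest intervals.

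Genes around this pathway were taken from lists. Over all genes tested, 3.16% were changed in Grh+ against D+, 0.235% in Ey+ against Grh+ and 3.95% in Ey+ against D+ INPs. In lists of 15 genes or fewer, counts near 0 say little about a list beside these shares. Of the 15 partners and regulators of the MSL complex, 14 were found and tested and 0 were changed in any comparison. Rm62 missed only the fold change threshold in both comparisons with D+ INPs. Its log2 fold change was -0.72 in Grh+ against D+ (adjusted p = 0.0367) and -0.78 in Ey+ against D+ INPs (adjusted p = 0.0263, both in edgeR). Over all genes, 6.23% and 7.95% passed adjusted p alone in these comparisons. Clamp, the zinc finger protein that recruits the complex to the X, was at 191 ± 24.8, 261 ± 18.7 and 237 ± 30.5 RPM in D+, Grh+ and Ey+ INPs (SD, n = 3 libraries each), and the log2 fold change in Ey+ against D+ INPs was 0.44 (unadjusted p = 0.0264, adjusted p = 0.133 in edgeR). JIL-1, the histone H3 kinase enriched on the male X, was at 252 ± 124, 233 ± 20.3 and 284 ± 60.7 RPM in the same order, and its log2 fold changes ran from -0.27 to 0.62 (adjusted p = 0.597 to 0.806 in edgeR). The 6 genes of the NSL complex, in which MOF acts at promoters of both sexes, had 0 changed.

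Upstream of Sxl, 7 of the 9 X signal elements and early Sxl regulators passed the filter, and 1 was changed in 1 comparison. This was run, a transcription factor that activates Sxl in the early embryo and is itself a pair-rule segmentation gene, at 298 ± 77.3, 122 ± 16.6 and 222 ± 29.4 RPM in D+, Grh+ and Ey+ INPs (SD, n = 3 libraries each), which in Grh+ against D+ INPs fell by 1.45 on the log2 scale (adjusted p = 0.00921 in edgeR, standard error 0.22). Of the 9 splicing cofactors of Sxl and genes of the m6A machinery, 1 was changed, and it was changed in both comparisons with D+ INPs. The share of all genes tested that was changed was 3.16% in Grh+ against D+ and 3.95% in Ey+ against D+ INPs. snf, a protein of the U1 and U2 spliceosomal particles, needed for Sxl autoregulation, was at 183 ± 45.3, 101 ± 6.46 and 79.2 ± 22.0 RPM in the 3 states (SD, n = 3 libraries each). Its log2 fold change was -1.01 in Grh+ against D+ (adjusted p = 0.0223 in edgeR, standard error 0.20) and -1.11 in Ey+ against D+ (adjusted p = 0.0141 in edgeR, standard error 0.20). Both snf calls were close to the fold change threshold, and adjusted p was not stable either. Of 19 alternatives, 4 kept the first call and 14 the second, while adjusted p alone passed in 11 and 15. In Ey+ against D+ INPs, 6 libraries only gave snf -1.12 (adjusted p = 0.0685 in edgeR). Leaving out Ey+ replicate 2 gave -1.105 there (adjusted p = 0.0981 in edgeR). With both libraries that stood apart in length left out, the log2 fold changes of the first and second call were -0.77 and -0.78. The run call was kept in 17 of 19 alternatives and lost without Grh+ replicate 1 or Grh+ replicate 3, with log2 fold changes of -1.77 to -1.27 over all 19. In Ey+ against Grh+ INPs run rose by 1.14 and did not pass (adjusted p = 0.0849 in edgeR). Whether this rise passed depended on the setting. DESeq2 gave 1.16 (adjusted p = 0.000446), and edgeR with the replicate block 1.14 (adjusted p = 0.206). Among the early Sxl regulators, dpn passed adjusted p alone in Ey+ against D+ INPs (log2 fold change 0.79, adjusted p = 0.0417 in edgeR).

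Downstream of Sxl, tra2, the partner of TRA in both sexes, was at 144 ± 27.5, 169 ± 12.4 and 177 ± 36.6 RPM in D+, Grh+ and Ey+ INPs (SD, n = 3 libraries each), and its log2 fold change was 0.41 in Ey+ against D+ INPs (unadjusted p = 0.0414, adjusted p = 0.169 in edgeR). fru, the other sex-specific target of TRA, was low, at 1.95 to 6.71 RPM in 8 libraries and 31.5 RPM in Grh+ replicate 2. That library also had the highest sum over 12 Y-linked genes, at 20.9 RPM against 0.178 to 6.44 RPM in the others, and it held 15568 detected genes against 11048 to 14330 in the others. The yolk protein genes Yp1, Yp2 and Yp3, made in the fat body of females, summed to 0.102 to 2.46 RPM per library. Of the 3 DMRT paralogs of dsx, 2 were tested and 0 were changed. Of these, dmrt99B had means of 0.447, 4.45 and 4.22 RPM in D+, Grh+ and Ey+ INPs, below the 10 RPM threshold. Its log2 fold change was 3.13 in Grh+ against D+ (adjusted p = 0.0602) and 3.25 in Ey+ against D+ INPs (adjusted p = 0.0478, both in edgeR). Medians of log2 fold change were -0.24, 0.40 and 0.40 for the MSL partners and -0.37, -0.02 and -0.29 for the Sxl cofactors in Grh+ against D+, Ey+ against Grh+ and Ey+ against D+ INPs, and -0.15, 0.09 and 0.01 for the 10 genes of the set.

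The X chromosome is where the MSL complex acts, so the level of X-linked genes was measured per library as the median log2 RPM of the 1649 X-linked genes tested minus that of the 8304 tested genes on 2L, 2R, 3L and 3R. It was 0.456, 0.380 and 0.320 in D+ replicates 1, 2 and 3. It was 0.351, 0.242 and 0.388 in the Grh+ libraries and 0.367, 0.438 and 0.435 in the Ey+ libraries. The states overlapped with this filter. Their means were 0.385 ± 0.07, 0.327 ± 0.08 and 0.413 ± 0.04 (SD, n = 3 libraries each), and differences were -0.06 in Grh+ against D+, 0.09 in Ey+ against Grh+ and 0.03 in Ey+ against D+ INPs (exact permutation p = 0.5, 0.2 and 0.7, and adjusted over the 3 comparisons p = 0.7, 0.6 and 0.7). The filter changed these values. With genes at 10 or more counts in every library (1268 X-linked and 5956 autosomal), the level was -0.067 to 0.042 in D+, 0.028 to 0.068 in Grh+ and 0.095 to 0.201 in Ey+ libraries, so that Ey+ lay above both other states without overlap. The differences were then 0.084 in Grh+ against D+, 0.09 in Ey+ against Grh+ and 0.174 in Ey+ against D+ INPs (exact permutation p = 0.2, 0.1 and 0.1). Median log2 fold changes of X-linked genes were 0.03, 0.03 and 0.09 in the same comparisons, against -0.01, -0.04 and -0.05 for genes on the 4 autosomal arms. Among X-linked genes 3.15%, 0.06% and 4.43% were changed, against 3.08%, 0.24% and 3.81% of genes on the 4 autosomal arms.

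The share of counts on X-linked genes gave another picture. It was 15.9%, 14.7% and 15.9% of counts on X and the 4 autosomal arms in D+ replicates 1, 2 and 3. It was 17.2%, 17.5% and 17.0% in the Grh+ libraries and 17.0%, 18.5% and 18.1% in the Ey+ libraries, so every Grh+ and Ey+ library was above every D+ library. The difference was 1.72 percentage points in Grh+ against D+ and 2.35 in Ey+ against D+ INPs (exact permutation p = 0.1 for each, the smallest that 3 against 3 allow). Few genes held most of it. His3.3B, an X-linked histone H3.3 gene, accounted for 0.785 of the 1.72 points, Act5C for 0.305 and roX1 itself for 0.221. In Ey+ against D+ INPs the same genes accounted for 1.615, 0.125 and 0.351 of the 2.35 points. His3.3B and Act5C were chosen after their values were seen, as large contributors, so leaving them out was bound to narrow the difference. Without these 3 genes and the 10 members, the share was 13.8% to 14.1% in D+, 14.6% in all 3 Grh+ and 13.9% to 14.9% in Ey+ libraries. The libraries of Grh+ and D+ INPs still did not overlap, by a smaller margin, and those of Ey+ and D+ INPs did.

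**Figure D4:**
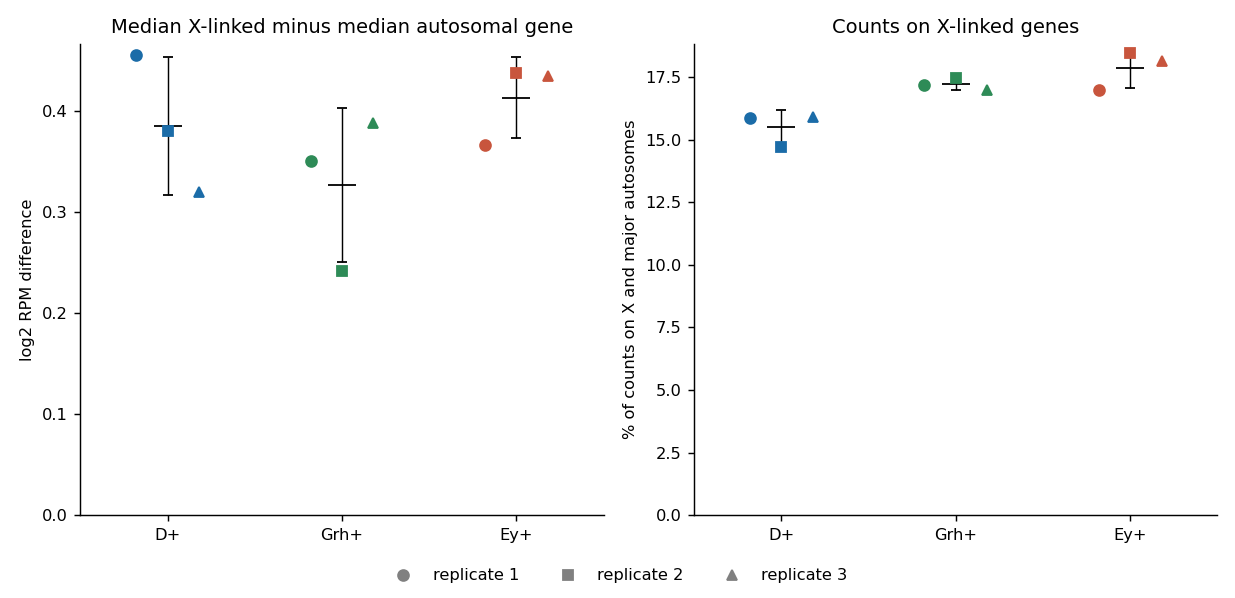
Left, median log2 RPM of X-linked genes minus that of autosomal genes in each library (vertical axis, log2). Right, counts on X-linked genes as a percentage of counts on X and the 4 autosomal arms. Points are libraries, with a mark shape per replicate number and bars for the mean and SD of 3 libraries. The states overlap in the left panel, between 0.242 and 0.456, and D+ libraries lie below the others in the right panel, at 14.7% to 15.9%.

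The genes with the most similar pattern to each roX RNA were ranked by Pearson r of log2(RPM + 1) over the 9 libraries, among 6275 genes over 10 RPM in a state. The values describe the libraries, which share depth and transcript length effects, and carry no p. For roX1 the 5 nearest were lqf (r = 0.986), Plc21C (0.980), Lis-1 (0.980), her (0.979) and Ubc6 (0.977). The gene her, a zinc finger gene with a role in sex determination and one of the early Sxl regulators of the lists, was at 55.8 RPM in D+ replicate 2 and 95.2 to 127 RPM in the other libraries. Without D+ replicate 2, r of these 5 genes with roX1 fell to 0.785 to 0.864. For roX2 the 5 nearest were CG3529 (0.979), fy (0.966), mRpS29 (0.962), IPIP (0.961) and nero (0.959), and without D+ replicate 2 their r was 0.948 to 0.974. None of these 10 genes lies on the X. X-linked genes were 1649 of the 10193 genes tested, so this count among 10 genes says little. Among the other members, roX2 had r = -0.894 with Sxl (-0.856 without D+ replicate 2), 0.759 with msl-3 and 0.738 with tra. With Sxl the sign was opposite for roX1, at r = 0.713 (0.619 without D+ replicate 2). roX1 also had r = -0.871 with tra (-0.526 without D+ replicate 2) and 0.703 with msl-1 (0.01 without it). The r of roX1 with roX2 was -0.586 (-0.411 without D+ replicate 2).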

How the data were processed

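Each of the 3 temporal states of INPs gave 3 libraries of polyadenylated RNA from sorted cells (oligo-dT priming, Nextera libraries with molecular tags, 50 bp single-end reads). The deposited values are counts per gene that the authors made: rRNA reads were removed with BWA 0.7.12, the rest aligned with TopHat2 2.1.1 to FlyBase gene models (release r6.12), duplicates marked, small RNA genes masked with bedtools 2.26.0, and reads counted with HTSeq 0.6.1 in intersection-nonempty mode. Reads on several genes were set aside, and strand was not used, so a gene and its antisense neighbour cannot be told apart. Summary lines that name no gene (34.7% to 53.2% of a file's counts) were left out.

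RPM was computed from each library's total of counts on genes. Fold changes came from edgeR 4.0.16 (R 4.3.3; TMM, filterByExpr by state, 10193 genes, all 9 libraries in 1 model, quasi-likelihood test, Benjamini-Hochberg adjustment over all genes tested). DESeq2 1.42.0 was an alternative. The fit was tested on simulated data. Ratios and X-linked levels were compared with two-sided exact permutation tests over libraries, where 3 against 3 cannot go below p = 0.1. Gene positions are those of the release 6 assembly. No pair of libraries was identical.

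The text names all 10 genes, from the lists those changed in a comparison together with tra2, fru, Clamp and JIL-1, and the 5 genes most like each roX RNA. Rm62, dpn and dmrt99B were named as well, since they passed adjusted p in a comparison without being counted as changed. A result on the list of partners and effectors downstream of Sxl is not reported here. The members and lists were chosen with earlier results of these data known. Intervals and floors from counts were not used. The precision of each value is the spread between libraries. Other settings tried were other scalings, filters, 6 libraries only, a replicate block, each library left out, and, chosen after seeing the data, D+ replicate 2 and Ey+ replicate 1 left out together and the trend on exon length removed (loess, span 0.5).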

Additional observations from a re-analysis of the deposited data

How the results depend on the processing

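The number of members changed was 1 in place of 0 in Grh+ against D+ INPs with library size only or upper-quartile scaling (dsx, log2 fold change 1.07 and 1.00), and 1 at adjusted p alone in Grh+ against D+ and in Ey+ against D+ INPs (dsx). With each library left out it was 0 to 1 in both of these comparisons, dsx without D+ replicate 3 and tra without D+ replicate 1, and it was 0 in Ey+ against Grh+ INPs under all alternatives. Without the fold change threshold, adjusted p of dsx passed in 13 of 19 alternatives in Grh+ against D+ and in 10 of 19 in Ey+ against D+ INPs.

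The difference in the log2 ratio of roX2 to roX1 between Grh+ and D+ INPs, -0.05, turned to 0.20 with the exon length trend removed, 0.90 with D+ replicate 2 and Ey+ replicate 1 left out and 0.026 from summed counts, and was -0.57 to 0.90 with each library left out. The p over 3 states was 0.0393 to 0.661 with each library left out. The difference in X-linked level turned to 0.084 with at least 10 counts in every library, and to 1.72 percentage points as a share of counts, in Grh+ against D+ INPs, and in Ey+ against D+ INPs, 0.03 in the main analysis, it was 0.174 with at least 10 counts in every library and -0.005 to 0.063 with each library left out. The ratio in Ey+ against Grh+ INPs was lower in all alternatives.

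Of 570 refits of single members, 40 changed sign. None of these members passed adjusted p in either fit. With library size only, mle was 0.044 in Grh+ against D+, -0.17 in Ey+ against Grh+ and -0.13 in Ey+ against D+ INPs, mof -0.19 in Ey+ against Grh+ INPs and msl-3 -0.085 in Ey+ against D+ INPs. With upper-quartile scaling, mof was -0.024 in Ey+ against Grh+ and mle -0.013 in Ey+ against D+ INPs, where 6 libraries only gave mle -0.016. In Ey+ against D+ INPs msl-1 was 0.016 with DESeq2's size factors and 0.015 with DESeq2. With D+ replicate 2 and Ey+ replicate 1 left out, roX1 was -0.17 in Grh+ against D+, msl-3 0.063 in Ey+ against Grh+, and roX2 0.11 and Sxl -0.29 in Ey+ against D+ INPs. With the exon length trend removed, roX1 was -0.16 and msl-3 -0.18 in Grh+ against D+, msl-3 0.10 in Ey+ against Grh+, and msl-2 -0.089, msl-3 -0.08 and mle -0.35 in Ey+ against D+ INPs. The cause was not tested. With each library left out, values in Grh+ against D+ INPs were -0.20 to 0.44 (roX1), -0.03 to 0.70 (roX2), -0.65 to 0.002 (msl-1), -0.024 to 0.18 (msl-3) and -0.32 to 0.18 (mle). In Ey+ against Grh+ INPs they were -0.17 to 0.063 (msl-3), -0.19 to 0.33 (mle) and -0.008 to 0.14 (mof). In Ey+ against D+ INPs they were -0.30 to 0.35 (msl-1), -0.061 to 0.13 (msl-3) and -0.13 to 0.15 (mle).

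Replicate numbers gave no clear pairing of the samples. Correlations of deviations were -0.257 to 0.498 between libraries with the same number and -0.544 to 0.372 between those with different numbers. These ranges overlap and cannot exclude a pairing. With the replicate block, 0 members were changed in each comparison, the ratio differences were -0.05, -1.20 and -1.25, and msl-1 in Ey+ against D+ INPs turned to 0.054. Over all genes, the alternatives changed 53 to 497 genes in Grh+ against D+ (322 in the main analysis), 3 to 173 in Ey+ against Grh+ (24) and 108 to 647 in Ey+ against D+ INPs (403). The lowest counts in comparisons with D+ INPs came when a Grh+ or an Ey+ library was left out. With 3 libraries per state the ratio and the X-linked level cannot pass a pairwise permutation test.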
